A study of Homo sapiens with 4 samples.

Results

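The histone cluster genes encode the linker histone H1 and the core histones H2A, H2B, H3 and H4, and were described here in HCT116, a human colorectal cancer cell line, with and without depletion of NUDT21. Their members were the rows of the deposited tables whose symbol began with HIST1H, HIST2H, HIST3H or HIST4H, the older names of the 4 replication-dependent clusters. There were 71 members among 20003 genes, 6 of H1, 17 of H2A, 18 of H2B, 15 of H3 and 15 of H4. Averaged over the 4 libraries, 16 of them reached 1 RPKM (a read density scaled to gene model length and library depth), 43 lay above 0 and under 1, and 12 were at 0.

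The control libraries, shPLKO1 and shPLKO2, came from HCT116 cells labelled WT, and the series description calls the control hairpin shScramble. The knockdown libraries, shNUDT21_1 and shNUDT21_5, came from HCT116 cells labelled NUDT21 knockdown by short hairpin RNA. All 4 carry the treatment label NONE and the same time label, and no label says whether 1 and 5 name hairpins or repeat samples, or whether a group's libraries came from separate cultures, so the spread behind every p-value is that among these libraries and may be technical. NUDT21, the RNA-binding subunit of cleavage factor Im, stood at 15.5% of the control mean in shNUDT21_1 and at 11.7% in shNUDT21_5 (limma adjusted p 0.0406), although with no filter on low values the adjusted p was 0.0653 and without shPLKO1 or shPLKO2 it was 0.116 or 0.111. Depth was between 29963980 and 30459886 reads a library. The epithelial markers EPCAM and CDH1 were at 130 to 180 and at 42.7 to 63.8 RPKM, the intestinal marker VIL1 was at 0.133 RPKM or less, and the leukocyte marker PTPRC was at 0.0456 RPKM or less. The keratins KRT8, KRT18 and KRT19 were abundant, with both knockdown libraries below both controls. The 7 epithelial markers summed to 10075 and 9423 RPKM in the controls and 3698 and 4521 in shNUDT21_1 and shNUDT21_5, mostly from the keratins. EPCAM, CDH1 and CLDN7 went the other way, with both knockdown libraries above both controls. CLDN7 was at 209 and 208 RPKM in the controls and 278 and 374 in the knockdown. The 13 markers of leukocytes, endothelium and fibroblasts summed to 18.1 and 17.6 against 10.8 and 11.0 RPKM, mostly from ACTA2 and COL1A1, with CD3E at 0 in 2 libraries. The part of these differences in the histone values was not tested. In bulk RNA, fewer cells of a kind and less RNA per cell cannot be told apart.

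Replication-dependent histone mRNAs are made in S phase, when new DNA has to be packed into nucleosomes. They are the animal mRNAs that usually end in a conserved stem-loop and not in a poly(A) tail: SLBP binds the stem-loop, the U7 particle with LSM10 and LSM11 positions the cut, and CPSF3, the nuclease that also cuts polyadenylated mRNAs, cleaves the transcript. Some histone genes, in cells that leave the cycle and in tumour cells, also give transcripts that run past the stem-loop to a poly(A) signal. The labels name a SMARTer mRNA-Seq kit on total RNA and do not say whether tailed RNA was selected, and the values do not separate tailed from untailed transcripts.

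Both kinds of 3' end can be read in the annotation of some abundant members. The stem-loop was searched for as GGNNCTTTTNAGNGCC on the transcript strand of GENCODE v29. It was found in 31 members and in 0.173% of the 19669 protein-coding genes, of which 3 were no members. For 30 members v29 gives no transcript longer than the coding sequence of H3, so a missing match says little. HIST1H1C and HIST1H2BK, the most abundant members, have a single v29 transcript each, of 642 and 381 bases. Neither transcript held the stem-loop or a poly(A) signal near its end, so no kind of end can be read for these genes. The following elements, in capitals with 5 bases on each side, come from members of at least 1 RPKM, and are shown as the elements in which members on chromosomes 6 and 1 can be compared. The search fixed all but 4 of the 16 bases, so it sets how far they can differ.
HIST1H2AC stem-loop: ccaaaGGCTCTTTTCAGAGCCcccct
HIST3H2A stem-loop: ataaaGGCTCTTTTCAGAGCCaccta
HIST2H2BE stem-loop: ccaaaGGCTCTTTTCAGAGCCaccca
HIST1H3H stem-loop: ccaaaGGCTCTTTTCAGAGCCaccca
HIST1H2BC stem-loop: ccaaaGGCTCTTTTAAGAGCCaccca
HIST1H2BD stem-loop: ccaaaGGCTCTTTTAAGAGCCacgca
HIST1H2AG stem-loop: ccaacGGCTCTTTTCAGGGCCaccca
Of the 5 different stem-loops found, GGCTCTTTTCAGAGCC was that of 17 members, and the H4 genes that matched carried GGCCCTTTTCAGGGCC in 5 cases and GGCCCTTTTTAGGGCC in 3.

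A v29 transcript with AATAAA or ATTAAA in its last 40 bases existed for 10 of the 16 members of at least 1 RPKM (62.5%) and for 13 of the other 55 (23.6%). Annotation of such ends depends on earlier RNA evidence, so these shares are a description. The last 30 bases of 5 such transcripts are shown with the signal in capitals, because they are the ends that a tailed histone mRNA would have.
HIST1H2BC transcript end: agacaaaATTAAAataactcctagtatctc
HIST1H2BD transcript end: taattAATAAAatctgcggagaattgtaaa
HIST1H3E transcript end: agatgtaaAATAAAagattactgaacagaa
HIST2H2BE transcript end: gttattAATAAAgttaccaattaatttaaa
HIST3H2A transcript end: tctgatATTAAAagtatttatgatctctaa
For HIST1H2BC and HIST1H2BD the transcript shown holds no stem-loop match, whereas those of HIST2H2BE and HIST3H2A ran 1729 and 390 bases past it. TGTA, the DNA form of the UGUA motif that NUDT21 binds, occurred in the last 100 bases of 15 of 30 such member transcripts, against 52.6% of 35634 protein-coding transcripts with the same kind of end.

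The gene models behind the values were short. Their lengths, recovered from the values for the 59 members above 0, ran from 354 to 2223 bases with a median of 466, and among core histones 5 exceeded 600 bases. HIST1H2AC had a model of 546 bases against a longest v29 transcript of 1668 bases, and HIST3H2A one of 496 against 895. HIST2H2BE, at 2223 bases, was near its v29 transcript of 2194 bases. For most members the level was thus that of the coding region and its flanks.

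A few members carried nearly all of the signal of the histone cluster genes. In control cells the members summed to 310 and 318 RPKM, and the 6 most abundant ones, HIST1H1C, HIST1H2BK, HIST1H2BD, HIST1H2AC, HIST3H2A and HIST1H2BC, made up 92.1% and 93.0% of this. By type, H1 gave 41.6% and 42.8% of the sum, H2B 37.4% and 37.2%, H2A 17.8% and 17.6%, H3 1.96% and 1.44%, and H4 1.21% and 0.914%. In control cells H2B summed to 116 and 118 RPKM, H2A to 55.2 and 56.1, H3 to 6.08 and 4.59 and H4 to 3.74 and 2.91. These are mRNA sums over cluster members only. Outside the clusters, H3F3A was at 176 and 164 RPKM and H3F3B at 312 and 314 in the controls. Whether untailed mRNAs and reads that match several places were counted is not given. The sums thus do not measure the core histone proteins, which a nucleosome holds in equal number.

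**Figure D1:**
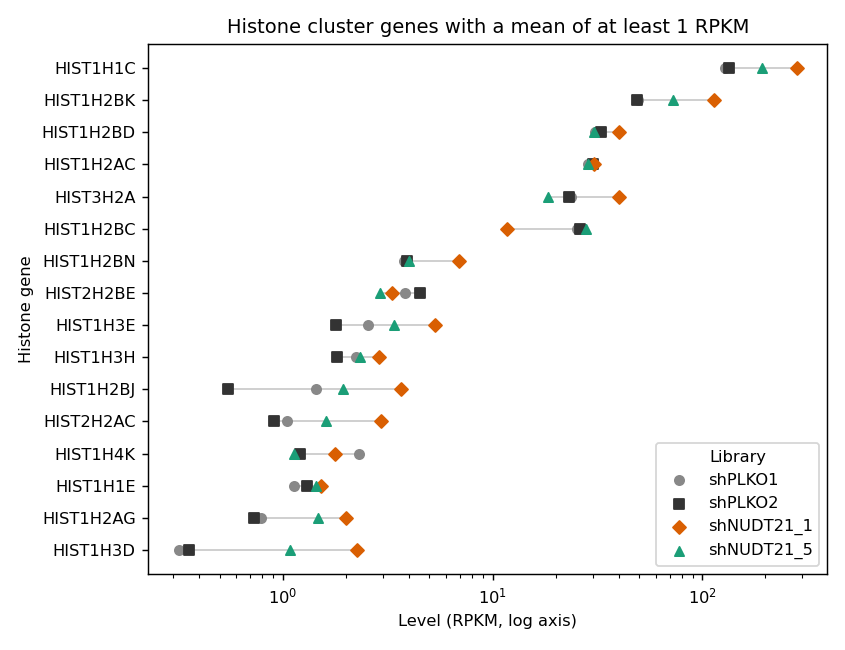
Level in each library of the 16 histone genes that averaged 1 RPKM or more (horizontal log axis, RPKM; grey circles and black squares, controls; orange diamonds and green triangles, knockdown). HIST1H1C leads at 128 to 282 RPKM, and shNUDT21_1 is to the right of shNUDT21_5 for 15 of the 16 genes.

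In knockdown cells the members summed to 565 RPKM in shNUDT21_1 and 403 in shNUDT21_5, 1.80 and 1.28 times the control mean, so that both knockdown libraries stood above both controls. This sum over chosen members is given without a test, and with 2 against 2 an exact two-sided permutation p cannot go below 0.333. HIST1H1C alone made up 49.8% and 48.0% of it, and without HIST1H1C the ratios were 1.55 and 1.15. Over all 11124 genes tested, 5.82% passed the threshold of an adjusted p under 0.05 (limma on log2(RPKM + 1)). Calls upward made up 2.61% and calls downward 3.21%. Of the 16 members tested, 0 passed in either direction. An unadjusted p under 0.05 was found for 7 of them, against 33.9% of all genes. With voom on recovered reads 0 of the 16 passed and 4 had an unadjusted p under 0.05, against 746 and 3808 of all 11124 genes. The lowest adjusted p of a member was 0.0659 (limma). Both knockdown libraries stood above both controls for 10 of the 16, against 31.9% of all genes tested, and below both for 1, against 33.4%. The median log2 difference was 0.32 for these members and -0.003 for all genes tested. HIST1H2AG, HIST1H2BJ, HIST1H3D and HIST2H2AC had a control mean under 1 RPKM and reached the filter only through their knockdown values, so these counts and the median are no support for a shift. Without those 4, a choice made after seeing the data, the median was 0.19, and both knockdown libraries stood above both controls for 6 of 12 and below both for 1. Without shNUDT21_1 the same test called 10 of the 16 (7 higher, 3 lower) and 68.7% of all genes, and without shNUDT21_5 it called 12 (11 higher, 1 lower) and 65.4%. In those fits the spread came from the controls alone and the lone knockdown library was assumed to vary like them.

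**Figure D2:**
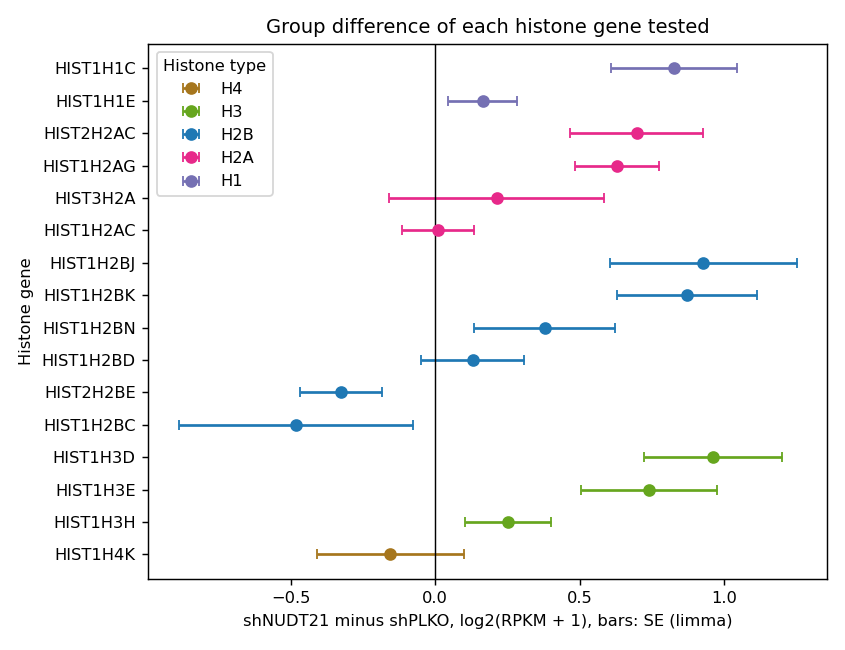
Difference between the groups on the log2(RPKM + 1) scale for each of the 16 histone genes tested, by histone type, with the limma standard error as bars. HIST1H3D, HIST1H2BJ, HIST1H2BK and HIST1H1C stand at 0.83 to 0.96, HIST2H2BE, HIST1H2BC and HIST1H4K below 0, and 0 of the 16 passed over all genes. HIST1H3D, HIST1H2BJ, HIST1H2AG and HIST2H2AC reached the filter only through their knockdown values.

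Linker histones bind the DNA where it enters and leaves the nucleosome. HIST1H1C (now H1-2), which encodes H1.2, was the most abundant member, with 128 and 135 RPKM in the controls, from 2846 and 2985 reads, and 282 and 194 RPKM in shNUDT21_1 and shNUDT21_5, from 6233 and 4246 reads. Both knockdown libraries were thus above both controls, and the distance between them was larger than that from the lower of them to the higher control. Its log2 difference was 0.83 (SE 0.22, limma adjusted p 0.0806). HIST1H1E (H1-4) was far lower, at 1.13 and 1.30 RPKM in the controls and 1.52 and 1.45 in the knockdown (adjusted p 0.384). The groups did not overlap there either, with 27 and 31 reads against 36 and 34. The other H1 members were under 1 RPKM, and the testis gene HIST1H1T had 1 or 2 reads in every library.

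Of the 4 H2A members of at least 1 RPKM, the 2 low ones had both knockdown libraries above both controls and the 2 abundant ones had overlapping groups. The 2 low ones, HIST1H2AG and HIST2H2AC, reached 1 RPKM only through their knockdown values, so this contrast is no support for a shift. Over all genes tested, 31.9% had both knockdown libraries above both controls. HIST1H2AC (H2AC6) was at 28.6 and 30.2 RPKM in the controls and 30.5 and 28.7 in the knockdown, a difference of 0.008 on the log2 scale (SE 0.12, adjusted p 0.969). No other tested member had a difference as close to 0. HIST3H2A (H2AC25), of the small cluster on chromosome 1, had 23.6 and 23.1 RPKM in the controls, 40.1 in shNUDT21_1 and 18.4 in shNUDT21_5. Its knockdown libraries thus lay on opposite sides of the controls (adjusted p 0.712). HIST2H2AC (H2AC20) had 1.05 and 0.906 RPKM against 2.95 and 1.60, and HIST1H2AG (H2AC11) 0.791 and 0.729 against 1.99 and 1.47, both without overlap (adjusted p 0.113 and 0.0659). They rested on few reads, 14 and 12 against 39 and 21 for HIST2H2AC.

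H2B had the most members of at least 1 RPKM, 6 of 18, and they ranged from a ratio of 0.747 to one of 2.82. HIST1H2BK (H2BC12) stood at 49.4 and 48.8 RPKM in the control libraries, against 114 and 72.5 in shNUDT21_1 and shNUDT21_5, with a log2 difference of 0.87 (SE 0.24, adjusted p 0.0865). Both knockdown libraries stood above both controls, in the proportions seen for HIST1H1C: 2.31 and 1.48 times the control mean here, 2.15 and 1.48 there. HIST1H2BJ (H2BC11) had 1.43 and 0.549 RPKM against 3.64 and 1.94 (adjusted p 0.125), and HIST1H2BN (H2BC15) 3.80 and 3.89 against 6.92 and 4.01 (adjusted p 0.333). HIST1H2BJ reached the filter only through its knockdown values. For HIST1H2BN, shNUDT21_5 exceeded the higher control by 1 read, and its exons overlap those of HIST1H2AK on the opposite strand.

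HIST1H2BD (H2BC5) and HIST1H2BC (H2BC4), also abundant H2B genes, did not follow HIST1H2BK. Their annotation includes stem-loop and tailed forms. For HIST1H2BK v29 gives only a transcript of 381 bases, beside a gene model of 887 bases, so its ends cannot be compared with theirs. A link between kind of end and difference was not tested. HIST1H2BD stood at 30.8 and 32.9 RPKM without and at 40.2 and 30.3 with the knockdown, so the groups overlapped (adjusted p 0.634). HIST1H2BC had 25.3 and 26.2 RPKM in the controls, 11.7 in shNUDT21_1 and 27.9 in shNUDT21_5. It was the only member of at least 20 RPKM that stood below the controls in shNUDT21_1, at 0.454 of the control mean, and the groups overlapped (log2 difference -0.48, SE 0.40, adjusted p 0.441). HIST2H2BE (H2BC21), with the longest gene model, stood at 3.81 and 4.53 RPKM in the control libraries, against 3.33 and 2.90 in the knockdown. It was the only member of at least 1 RPKM with both knockdown libraries below both controls (log2 difference -0.33, SE 0.14, adjusted p 0.184).

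Among H3 members, 3 of 15 reached 1 RPKM, and in each both knockdown libraries stood above both controls, against 31.9% of all genes tested. HIST1H3D reached 1 RPKM only through its knockdown values, so this count is no support for a shift. HIST1H3E (H3C6) had 2.56 and 1.79 RPKM against 5.30 and 3.395 (adjusted p 0.107). HIST1H3H (H3C10) had 2.22 and 1.81 against 2.87 and 2.33 (adjusted p 0.295), with 32 reads in the higher control and 33 in the lower knockdown library. HIST1H3D (H3C4) stood at 0.321 and 0.358 RPKM in the control libraries, against 2.26 and 1.09 in the knockdown, from 9 and 10 against 63 and 30 reads, a ratio of 4.93 and a log2 difference of 0.96 on the log2(RPKM + 1) scale (SE 0.24, adjusted p 0.0730). Exons of HIST1H3D overlap those of an unnamed protein-coding gene on the same strand in v29, so reads may be shared. The only H4 member of at least 1 RPKM, HIST1H4K (H4C12), had 2.32 and 1.21 RPKM against 1.77 and 1.13 (adjusted p 0.691). Its groups overlapped, and all of its 50-base stretches occur in at least 1 other member, so its reads cannot be assigned to it with certainty.

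Of the other 15 members of at least 1 RPKM, 9 share 50-base stretches with another member. The share of 50-base stretches of the longest v29 transcript that also occur in another member was 30.5% for HIST2H2AC, 22.6% for HIST1H2BK and at most 7.70% for the remaining 13. It was 0% for HIST1H1C, HIST3H2A and the H3 genes. That transcript was shorter than the gene model behind the value in 8 of the 16, HIST1H1C, HIST1H2BK, HIST1H2BD and HIST1H3D among them, and longer in 8, so these shares are not those of the measured region. For HIST1H2BN, 120 shared stretches in a transcript of 4137 bases stand beside a model of 449 bases. Among members under 1 RPKM, HIST1H2AM had 86.3%, HIST1H3J 62.8% and HIST1H2AI 62.3%, so their values are uncertain. The sources used here do not give how the authors treated reads that match several places.

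The 43 members with a mean above 0 and under 1 RPKM held 74 and 77 reads in shPLKO1 and shPLKO2, with 95% counting intervals of 58.1 to 92.9 and 60.8 to 96.2. They held 219 reads in shNUDT21_1 (191 to 250) and 150 in shNUDT21_5 (127 to 176), so neither knockdown interval reached a control interval. Their summed level was 5.01 and 5.12 RPKM in the controls and 15.0 and 10.7 in the knockdown libraries, 2.96 and 2.12 times the control mean. The other 6439 genes in that range of levels stood at 1.10 times the control mean in shNUDT21_1 and at 0.921 times in shNUDT21_5. These intervals cover counting error only, and the sum is given without a test. The sum includes 10 members with 0 reads in both controls, which entered the range only through the knockdown. It is thus no support for a shift. Of all 71 members, 37 share a 50-base stretch with another member, 15 over more than 50% of their length, so the reads of these genes are not separate observations.

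**Figure D3:**
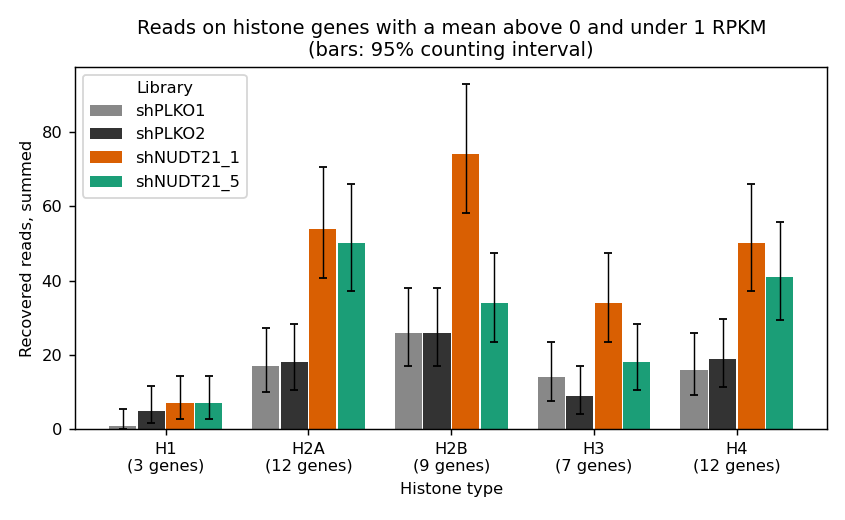
Reads summed over the histone genes averaging above 0 and under 1 RPKM, by histone type and library, with 95% counting intervals as bars. H2A goes from 17 and 18 reads in the controls to 54 and 50 in the knockdown and H4 from 16 and 19 to 50 and 41, while for H2B shNUDT21_1 has 74 reads and shNUDT21_5 has 34. Among these genes, 10 had 0 reads in both controls and entered the range only through the knockdown.

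The 12 H2A members of that range had 17 and 18 reads in the controls and 54 and 50 in shNUDT21_1 and shNUDT21_5, and the 12 H4 members 16 and 19 against 50 and 41. For H2A neither knockdown interval met a control interval, while for H4 that of shNUDT21_5 began at 29.4 and that of shPLKO2 ended at 29.7. For the 9 H2B members, 26 and 26 reads stood against 74 and 34, and for the 7 H3 members 14 and 9 against 34 and 18. There shNUDT21_5 was within counting error of the controls. The 3 H1 members had 1 and 5 against 7 and 7 reads, too few to compare. With 0 reads in both controls, 1 H2A, 2 H2B, 3 H3 and 4 H4 members entered the range only through the knockdown. The intervals cover counting error only, so these comparisons by type are no support for a shift.

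Single genes in that range had few reads. The 43 members held 74 and 77 reads in shPLKO1 and shPLKO2, and all 6482 genes of that range 186051 and 194672. The shares below are thus not matched for read number, and a gene with few reads is more often at 0. More reads in the knockdown pair than in the control pair were counted for 35 of the 43, fewer for 5 and as many for 3, against 49.1% with more and 45.4% with fewer among all genes of that range. Of the 43, 10 had 0 reads in both controls and entered the range only through the knockdown. For them a rise was fixed, so the counts here are no support for a shift. Both knockdown libraries stood above both controls for 18 of the 43 (41.9%), against 17.9% of the 6482 genes of that range, and below both for 2, HIST1H3A and HIST1H4I, against 20.4%. Absent from both controls and present in both knockdown libraries were 8 (18.6%), against 2.48% of such genes, and the reverse held for 0 members, against 2.64%. Those 8 were HIST1H2BL, HIST1H2BM, HIST1H3C, HIST1H3F, HIST1H3J, HIST1H4A, HIST2H2AB and HIST4H4, named after their values were seen. HIST4H4, the single gene of its cluster, had 9 and 3 reads and HIST1H2BL 5 and 5, the rest at most 3 in a library. The 12 members at 0 in all libraries were HIST1H1A, HIST1H2AA, HIST1H2BA, HIST1H2BH, HIST1H2BI, HIST1H3I, HIST1H4G, HIST1H4L, HIST2H3A, HIST2H3C, HIST2H3PS2 and HIST3H3, among them the testis genes HIST1H2BA and HIST3H3. All 50-base stretches of HIST2H3A and HIST2H3C, and 50.6% of those of HIST2H3PS2, occur in another member, so a value of 0 does not show that these were not expressed.

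**Figure D4:**
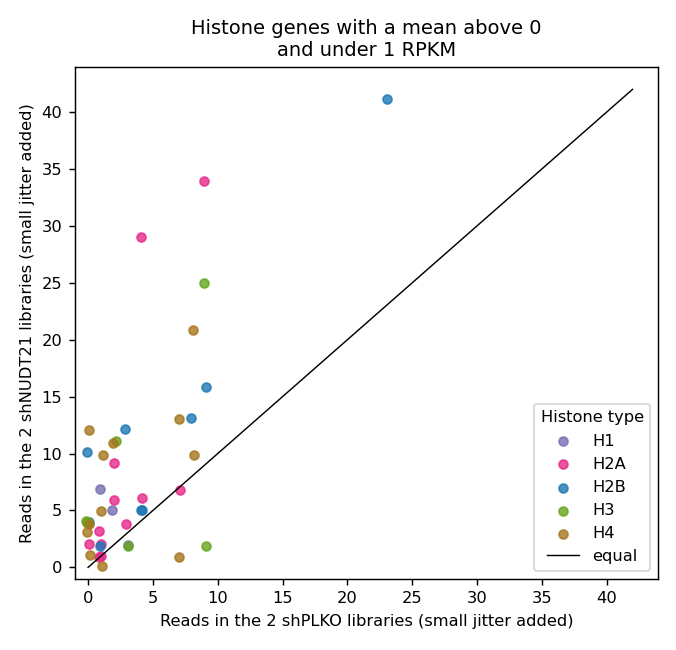
Reads of each histone gene with a mean above 0 and under 1 RPKM in both shPLKO libraries together (horizontal) and both shNUDT21 libraries together (vertical), with a small jitter. Of the 43 genes, 35 lie above the line of equal reads, 5 below it and 3 on it. Of the 43, 10 had 0 reads in both shPLKO libraries and could lie only above the line.

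The highest means under 1 RPKM were those of HIST1H2AI, HIST1H4E and HIST1H3B. HIST1H2AI (H2AC13) had 6 and 3 reads in the controls and 20 and 14 in the knockdown, or 0.420 and 0.211 against 1.41 and 0.996 RPKM. HIST1H4E (H4C5) had 4 and 4 against 10 and 11 reads, and HIST1H3B (H3C2) 4 and 5 against 17 and 8. In all of them both knockdown libraries exceeded both controls. The largest ratio in this range that rests on more than 30 reads was that of HIST1H2AM (H2AC17), with 2 and 2 reads in the controls and 18 and 11 in the knockdown, 7.31 in mean RPKM. Exons of HIST1H2AM overlap those of HIST1H3J on the same strand. HIST2H2BF had the most reads of the range and behaved otherwise, with 11 and 12 reads in the controls, 31 in shNUDT21_1 and 10 in shNUDT21_5. Without HIST2H2BF the range held 63 and 65 against 188 and 140 reads.

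When genes with at least 10 reads in total were tested with voom on the recovered reads, a setting chosen after seeing the data, 35 members entered, 19 of them from below 1 RPKM. Of the 35, 30 had a positive log2 difference, and their median was 0.83 against -0.01 for all 15073 genes. Of the 35, 9 had fewer than 5 control reads and entered through their knockdown reads, so this count and median are no support for a shift. Among the other 26, by a limit also set after seeing the data, 21 were positive and the median was 0.53. The share of positive genes over all genes in this fit, or under that limit, was not computed. In the limma fit of 11124 genes 49.8% were positive. The count among the 26 is thus no support for a shift either. An adjusted p under 0.05 was reached by 0 of the 35 (lowest 0.0612, limma), while 604 genes passed in all. An unadjusted p under 0.05 was found for 10 of the 35, against 31.5% of all genes in that fit.

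The 2 knockdown libraries differed in genes of DNA replication. Over 47 tested genes of G1/S and DNA replication, the median difference from the control mean on the log2(RPKM + 1) scale was 0.60 in shNUDT21_1 and -0.12 in shNUDT21_5. The 16 histone cluster genes had 0.73 and 0.14, and the 12 of them with a control mean of at least 1 RPKM had 0.34 and 0.08. PCNA, the sliding clamp of DNA polymerases, was at 82.9 and 80.4 RPKM in the controls, 135 in shNUDT21_1 and 50.2 in shNUDT21_5, and RRM2, of ribonucleotide reductase, at 54.7 and 50.6 against 85.3 and 23.4. CCNE1, cyclin E1, which with CDK2 drives histone transcription through NPAT, went the other way, with 25.7 and 24.2 RPKM in the controls, 12.7 in shNUDT21_1 and 48.6 in shNUDT21_5. CCNE2 was at 1.39 and 1.57 against 4.50 and 1.21 RPKM. MCM2, a helicase subunit that also holds H3 and H4, had 18.2 in both controls against 8.87 and 12.7 RPKM (adjusted p 0.0831). Of these 47 genes 0 passed (limma, 10 at an unadjusted p under 0.05, 0 with voom), against 5.82% of all genes passing and 33.9% at an unadjusted p under 0.05. The share of cells in S phase was not measured, and its part in the histone values was not tested.

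**Figure D5:**
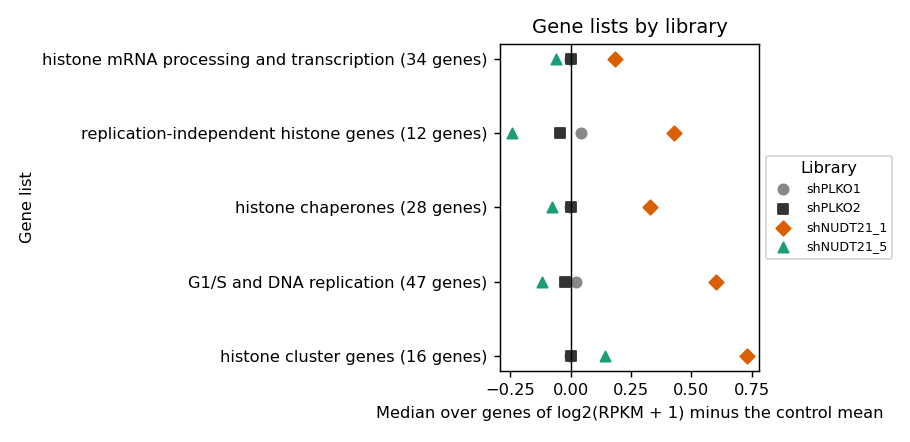
Median over the tested genes of each list of the difference from the control mean on the log2(RPKM + 1) scale, by library. shNUDT21_1 is above the controls for all 5 lists, and shNUDT21_5 is at 0.14 for the 16 histone cluster genes, 4 of which were tested only through their knockdown values, and between -0.24 and -0.06 for the other lists. Without those 4 the histone median in shNUDT21_5 is 0.08.

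The machinery that makes histone 3' ends was mixed. Of 34 tested genes of histone mRNA processing and transcription, 1 rose and 0 fell, against 2.61% and 3.21% of all genes, 14 had an unadjusted p under 0.05, against 33.9%, and the median log2 difference was 0.01. The gene that rose was ZCCHC11, a uridylyltransferase that marks RNAs for decay, from 3.12 and 3.402 RPKM to 5.88 and 5.89 (log2 difference 0.69, SE 0.12, adjusted p 0.0494). That call was lost with a pseudocount of 0.1, with no filter, without the intensity trend and without either control, and a filter at 5 RPKM left the gene untested. SLBP, which binds the stem-loop, was at 49.8 and 51.0 RPKM in the controls and 51.6 and 40.01 in the knockdown (adjusted p 0.574), and the U7 proteins LSM10 and LSM11 had ratios of 0.977 and 0.718. LSM11 had both knockdown libraries below both controls, at 1.94 and 1.90 against 2.66 and 2.68 RPKM (adjusted p 0.126).

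In the cleavage complex, SYMPK, the scaffold symplekin, was at 54.0 and 53.2 RPKM against 36.0 and 29.9 (adjusted p 0.0598), while CPSF2 was at 5.59 and 7.32 against 10.6 and 11.4 (adjusted p 0.0678). The nuclease CPSF3 had a ratio of 1.17 (adjusted p 0.351). ERI1, an exonuclease that trims and degrades histone mRNA, had 6.22 and 7.43 RPKM against 11.95 and 10.4 (adjusted p 0.0673). The regulators of histone transcription and processing NPAT, CASP8AP2 and ZNF473 had ratios of 1.70, 1.68 and 1.75, with both knockdown libraries above both controls in each (adjusted p 0.101, 0.0960 and 0.122). NPAT and CASP8AP2 had control means of 0.770 and 0.920 RPKM and reached the filter only through their knockdown values. Their values are thus no support for a rise. Over the list, both knockdown libraries stood above both controls for 13 of 34 genes, against 31.9% of all genes tested. They stood below both for 7, against 33.4%. Of the genes named from this list, ZCCHC11 alone passed the test.

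Replication-independent histones, whose mRNAs are polyadenylated, were not higher as a list in both knockdown libraries. Of 12 tested, 0 passed (limma, 1 at an unadjusted p under 0.05, 0 with voom), against 5.82% of all genes passing and 33.9% at an unadjusted p under 0.05. The median difference from the control mean was 0.43 in shNUDT21_1 and -0.24 in shNUDT21_5. H1F0, the linker histone of quiescent and differentiated cells, had 554 and 540 RPKM against 859 and 497. H2AFZ, of promoter nucleosomes, had 316 and 297 against 651 and 311. In both genes shNUDT21_1 was the high library and shNUDT21_5 lay within or below the controls. H2AFX, the variant phosphorylated at DNA breaks, had 42.7 and 38.9 RPKM against 154 and 58.9 (adjusted p 0.150) and was the only gene of the list with both knockdown libraries above both controls. Its mRNA also exists in a stem-loop form. H3F3A and H3F3B, both encoding H3.3, had ratios of 0.671 and 0.968 (adjusted p 0.0817 and 0.803), H1FX one of 0.657 (adjusted p 0.161), H2AFJ one of 1.11 and CENPA, the centromeric H3, one of 0.977.

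Histone chaperones, which carry new histones to DNA, had a median log2 difference of 0.12 over 28 tested genes. SET, of the family that binds histones and inhibits a phosphatase, was the 1 that rose, from 52.7 and 54.9 RPKM to 118 and 93.3 (log2 difference 0.95, SE 0.16, adjusted p 0.0494), and 0 fell, against 2.61% and 3.21% of all genes. The call was lost with no filter, with a filter at 5 RPKM, with voom at 10 reads or more and without either control. The S phase chaperones ASF1B, ASF1A, CHAF1A and NASP had ratios of 1.28, 1.48, 1.27 and 0.988 and overlapping groups.

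Promoters of the members share elements by histone type. RefSeq promoters on GRCh38.p14, from 250 bases before to 50 after the gene start, were matched for 62 of the 71 members and searched on both strands. Matching was by current symbol, and HIST1H2BD, HIST1H2BE, HIST1H2BF, HIST1H2BG and HIST1H2BI were given the same symbol, H2BC5. These members thus entered as a single H2B promoter. AAACACA, the H1 box, was in all 6 H1 promoters and in 6.94% of the promoters of 27305 genes. ATTTGCAT, the octamer bound by OCT1, was in 10 of 14 H2B and 11 of 16 H2A promoters, against 2.19% of all genes. Many H2A and H2B genes face each other across a shared promoter, so these are not separate observations. TATAAA was in 69.4% of member promoters against 14.0%, and CCAAT in 83.9% against 39.7%, with H4 at 3 of 13. The promoters of HIST1H1C and HIST1H2BK are shown because these were the most abundant members and had the largest differences in RPKM, with AAACACA (HIST1H1C), ATTTGCAT (HIST1H2BK), TATAAA and CCAAT in capitals on either strand. The window of HIST1H1C is chr6:26056421-26056720 and that of HIST1H2BK chr6:27146809-27147108, both on the minus strand and written 5' to 3'.
HIST1H1C promoter: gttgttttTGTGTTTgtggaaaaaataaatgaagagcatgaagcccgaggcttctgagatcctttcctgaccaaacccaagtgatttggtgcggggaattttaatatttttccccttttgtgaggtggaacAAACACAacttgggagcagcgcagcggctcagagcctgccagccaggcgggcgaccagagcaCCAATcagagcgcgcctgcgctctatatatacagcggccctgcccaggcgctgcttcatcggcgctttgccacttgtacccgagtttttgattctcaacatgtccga
HIST1H2BK promoter: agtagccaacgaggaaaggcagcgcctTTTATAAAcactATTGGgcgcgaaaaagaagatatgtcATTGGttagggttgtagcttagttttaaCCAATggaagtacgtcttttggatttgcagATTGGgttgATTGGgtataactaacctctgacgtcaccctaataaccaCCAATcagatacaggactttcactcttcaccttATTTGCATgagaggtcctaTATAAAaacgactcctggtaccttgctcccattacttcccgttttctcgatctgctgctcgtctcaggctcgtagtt
These 2 genes carry different type-specific elements and had ratios of 1.81 and 1.89. A match is a description of letters and not a bound site.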

How the data were processed

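RNA sequencing of 4 HCT116 libraries was analysed, 2 of each group. The deposited values were taken as RPKM, inferred from the values since the file headers give no unit. Bowtie 0.12.2 and the build hg18 appear in the submitters' processing notes, without a role, and how the authors counted reads, over which annotation and with which use of strand, is not given in the sources used here. Of 20030 rows, 27 with a date in place of a symbol were left out.

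Whole reads were recovered from the steps of the RPKM values for all 17606 genes above 0 (tolerance 1e-06), and voom on these reads called 746 of 11124 genes. Annotated transcript lengths gave a single library total for 832 lengths, against 68 for the next. For members whose reads share a factor, the smallest factor giving a whole gene model of at least 300 bases was used. Where a possible factor gave the length of a v29 transcript of that member, that length was taken instead. limma 3.58.1 (R 4.3.3) with an intensity trend was fitted to log2(RPKM + 1) for the 11124 genes averaging 1 RPKM or more, two-sided, with Benjamini-Hochberg adjustment over all of them. Fold changes on that scale understate the change of low genes. Groups were called non-overlapping only if both RPKM and reads were strictly apart. On simulated data of 11124 genes, with 50 genes at each size of change, the test called 36.4% of 2-fold and 3.3% of 1.5-fold changes and 14 unchanged genes a set. Spread was drawn for each gene on its own, from its SD within each group. Shifts shared by many genes of a library were thus not simulated, and the 14 do not measure false calls in the data.

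Members, lists and tests were chosen with earlier results of these data known. Every member of at least 1 RPKM, the 3 highest under 1 and fixed genes of the context lists are named. The libraries of a group differed by more than counting error (mean chi-square per gene 6.34 for the controls and 149.5 for the knockdown), so none was counted as a duplicate. GENCODE v29 and RefSeq are of another build than hg18 and were used for symbols, sequences and promoter positions, the last on their own build. Alternatives were the pseudocount, the filter, the trend, a median-ratio scaling and leaving out each library, and, added after seeing the data, voom on recovered reads and a filter on the control mean.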

Additional observations from a re-analysis of the deposited data

How the results depend on the processing

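No paired analysis was possible because the groups share only 1 replicate number. Over all genes the test called 647, and 0 with no filter on low values (4762 at an unadjusted p under 0.05 in limma), 431 with a filter at 5 RPKM and 0 to 7644 when a library was left out, with 1 without shPLKO1 and 0 without shPLKO2. Histone cluster genes called stayed at 0 of those tested under every setting that kept all 4 libraries and were 0 to 12 with a library left out. Their median log2 difference of 0.32 was 0.14 to 0.73 with a library left out, 0.17 with a filter at 5 RPKM, 0.19 with no filter, 0.19 over the 12 members with a control mean of at least 1 RPKM and 0.83 with voom at 10 reads or more. The summed level, 1.54 times control, was 1.28 to 1.80 with a library left out, 1.53 over members of at least 1 RPKM and 1.35 without HIST1H1C.

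Among context lists, calls in histone mRNA processing and transcription (1) were 0 with a pseudocount of 0.1, no filter, a filter at 5 RPKM (which leaves ZCCHC11 untested) or no trend, 2 with median-ratio scaling and 2 with voom, and 0 to 25 with a library left out. Histone chaperone calls (1) were 0 with no filter or a filter at 5 RPKM, 2 with scaling and 2 with voom, and 0 to 20 with a library left out. The replication-independent histones went from 0 to between 0 and 11, and the G1/S list from 0 to between 0 and 41. The calls at the upper ends came without a knockdown library, where the spread rested on the controls alone. With a library left out, log2 differences spanned 0 for HIST1H2AC (-0.034 to 0.051), HIST1H2BC (-1.08 to 0.11), HIST1H2BD (-0.068 to 0.33), HIST1H4K (-0.45 to 0.14) and HIST3H2A (-0.33 to 0.76). The sign turned without shNUDT21_1 for HIST1H2BC, HIST1H2BD, HIST3H2A and HIST1H2AC, without shPLKO1 for HIST1H2AC (-0.031) and HIST1H4K, and without shNUDT21_5 for HIST1H4K (0.034). Where no construction shows it, the cause was not tested. At this depth single members under 1 RPKM rest on at most 31 reads a library.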
